A study of Mus musculus with 6 samples.

Results

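The cytosolic ribosomal protein genes encode the proteins of the ribosome outside mitochondria. They were taken as all rows of the table of 6 libraries whose mouse symbol has the form Rpl or Rps with a number (and an a, l or x where present), or is Rplp0, Rplp1 or Rplp2. The rule found 80 of 24067 genes, 49 of the large and 31 of the small subunit, and used no measured value. It takes in 5 paralogs, which are further copies related to another member (Rpl3l, Rpl10l, Rpl39l, Rps27l and Rps4l). Of these, RefSeq annotates Rps4l as a transcribed pseudogene. It misses ribosomal proteins with other symbols, among them Rpsa, Rps3a1, Fau and Gnb2l1.

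RNA sequencing counts were obtained from tongue with tumour of 6 C57BL/6 mice aged about 34 weeks. Both groups received the carcinogen 4-nitroquinoline 1-oxide (4NQO) over 16 weeks and were then kept for 12 weeks. Of the libraries, 3 are labelled HuR knockout (KO) and 3 wild type (WT). HuR, the product of Elavl1, attaches to AU-rich stretches of messenger RNAs and tends to stabilise them. The labels name no promoter, Cre line or allele for the knockout and do not say which cells lost the gene or how the replicates arose, so p-values measure only the spread between these samples.

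Each ribosome is built from ribosomal RNAs and one copy of most ribosomal proteins, so the proteins of both subunits are needed in nearly equal numbers. Their messenger RNAs are abundant and short and mostly begin with a run of pyrimidines (C and T), the 5′ terminal oligopyrimidine tract, through which growth signals control their translation. Mammalian genomes also hold very many intronless copies of these messenger RNAs, the processed pseudogenes, and a sequencing read that fits both a gene and its copies cannot be given to one of them from its sequence alone.

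That last point can be seen in the sequences. Below are the opening 90 bases of the coding sequence (GENCODE M21 transcripts, build GRCm38) of 7 genes, chosen to run from genes wholly copied elsewhere to a gene copied nowhere. Capitals mark bases that lie in a stretch of 50 bases found letter for letter in a transcript of another gene.
Rpl11 (gene at chr4:136028265-136053428, minus strand): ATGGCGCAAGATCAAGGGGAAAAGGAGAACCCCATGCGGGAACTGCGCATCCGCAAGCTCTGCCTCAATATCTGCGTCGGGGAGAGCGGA
Rps27a (gene at chr11:29545846-29548109, minus strand): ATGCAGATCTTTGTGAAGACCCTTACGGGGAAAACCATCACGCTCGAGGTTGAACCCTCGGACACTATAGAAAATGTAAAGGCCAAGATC
Rpl5 (gene at chr5:107900502-107909005, plus strand): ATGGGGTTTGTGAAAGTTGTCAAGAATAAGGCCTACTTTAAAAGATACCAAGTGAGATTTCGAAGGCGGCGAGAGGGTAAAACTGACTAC
Rpl3 (gene at chr15:80077791-80091868, minus strand): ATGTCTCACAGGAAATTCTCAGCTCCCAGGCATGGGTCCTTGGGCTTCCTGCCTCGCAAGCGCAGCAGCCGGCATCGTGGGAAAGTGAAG
Rps24 (gene at chr14:24487125-24496959, plus strand): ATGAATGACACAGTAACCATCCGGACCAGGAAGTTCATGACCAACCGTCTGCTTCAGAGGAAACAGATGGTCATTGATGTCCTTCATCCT
Rpl4 (gene at chr9:64173375-64178666, plus strand): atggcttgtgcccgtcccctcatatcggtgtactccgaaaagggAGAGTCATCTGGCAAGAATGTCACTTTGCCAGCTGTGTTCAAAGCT
Rpl3l (gene at chr17:24727820-24736143, plus strand): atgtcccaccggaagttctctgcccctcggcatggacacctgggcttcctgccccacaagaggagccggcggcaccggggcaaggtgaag
All 90 bases are shared in the first 5 of these, 46 of 90 in Rpl4 and 0 in Rpl3l. The opening of Rpl3l, though it encodes a close relative of Rpl3, has no exact match elsewhere.

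Library totals ran from 29543352 to 51520707 counts. Levels are given as CPM, the count over a library size scaled by edgeR's TMM method, and per-length levels as CPM per kilobase of coding sequence. Values of a group stand in the order of replicates 1, 2 and 3. Elavl1 was at 65.0, 59.3 and 78.4 CPM in the KO and 61.7, 55.8 and 48.0 CPM in the WT libraries, a log2 fold change of 0.29 ± 0.15 (standard error; edgeR's quasi-likelihood test, adjusted p = 0.180). The libraries with the KO label thus did not have a lower Elavl1 level, and the groups are named labelled KO and labelled WT. In KO replicates 2 and 3 Xist reached 1271 and 1104 CPM, with 2.50 CPM or less in the other 4 libraries, so sex as read from it was unequal between the groups. All 16 skeletal muscle markers were lower in value in the labelled KO libraries, 5 of them past the test, and summed to 4.73 to 6.48% of counts against 8.20 to 12.6%. All 12 keratinocyte markers were higher in value, 0 past the test, at 4.21 to 5.62% against 1.76 to 3.26%. No marker of either list was at 0, so both main tissues of the tongue were present. Of the other markers, 2 of 7 for fibroblasts and 2 of 4 for endothelium fell, with median log2 fold changes of -0.55 and -0.65. For lymphocytes 0 of 8 and for myeloid cells 0 of 7 passed the test, with medians of 0.89 and 0.33. Of all 15903 genes tested, 4.81% rose and 7.43% fell. The myeloid markers, 4 of 7 above 0, summed to 0.0805, 0.223 and 0.120% of counts in the labelled KO libraries. In the labelled WT libraries they summed to 0.0539, 0.0199 and 0.0158%, without overlap. In whole tissue a change in the number of cells and a change in RNA per cell cannot be told apart.

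Ribosomal protein genes made up a slightly larger part of the counts in the libraries labelled KO. Their summed counts were 1.06, 1.27 and 1.19% of all counts in the labelled KO and 1.04, 0.887 and 0.826% in the labelled WT libraries. The means were 1.18 ± 0.104% and 0.918 ± 0.112% (SD, n = 3 each). The groups did not overlap, but KO replicate 1 and WT replicate 1 lay close to each other. KO replicates 2 and 3, which had the larger shares, are also the libraries with high Xist. The share of muscle marker counts moved the opposite way over the same libraries. Taken over the counts outside muscle markers and keratins, the ribosomal share was 1.19, 1.44 and 1.35% in the labelled KO and 1.18, 1.03 and 0.964% in the labelled WT libraries, again without overlap.

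**Figure D1:**
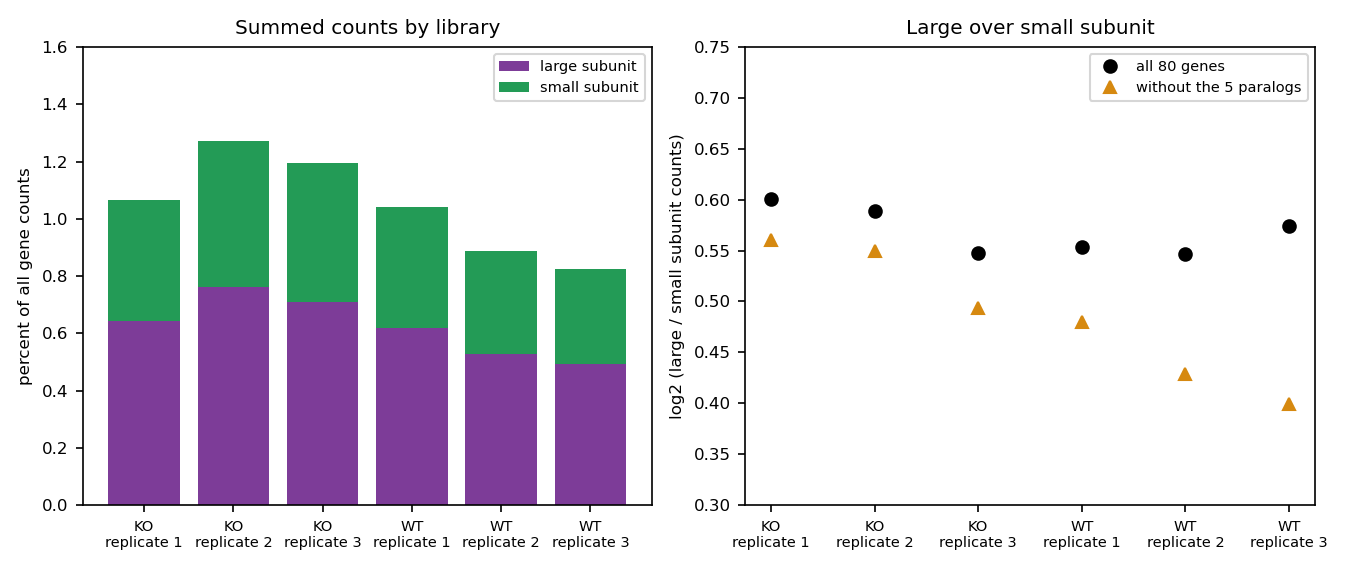
Left, summed counts of the large (purple) and small (green) subunit genes as a percent of all gene counts in each of the 6 libraries; right, log2 of summed large over summed small subunit counts in each library, for all 80 genes (circles) and without the 5 paralogs (triangles), on an axis that starts at 0.30. The bars of the labelled KO libraries reach 1.06 to 1.27% and those of the labelled WT libraries 0.826 to 1.04%, while the circles of the groups overlap.

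Gene by gene, the shift was small and shared by most members, and few passed the test. Of the 80 genes, 77 were tested; Rpl10l, Rpl26 and Rpl39l had too few counts. Rpl11 and Rps27a rose in the libraries labelled KO and 0 genes fell (adjusted p under 0.05, edgeR's quasi-likelihood test), where 4.81% of all 15903 genes tested rose and 7.43% fell. At an unadjusted p under 0.05, 19 members were higher and 3 were lower, against 18.2% and 20.3% of all genes. The DESeq2 test on the same counts called 7 higher and 2 lower, against 12.1% and 15.9% of all genes, and limma-voom 3 and 2, against 6.14% and 7.99%. The log2 fold change was above 0 in 71 of the 77, where 51.3% of all genes were, with a median of 0.27 against 0.02 over all genes. The middle of the distribution was narrow, from 0.21 to 0.39 between the quartiles. In 40 genes every labelled KO library lay above every labelled WT library, where 22% of all genes did, and in 3 genes (Rpl3l, Rpl15 and Rps24) every labelled KO library lay below, where 22.1% did.

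With the mean of the muscle markers as a covariate the median log2 fold change of the members was 0.24 and 72 of 77 were above 0, but 0 of all genes passed the test and 3 members were higher at an unadjusted p under 0.05. With sex as read from Xist as a covariate the median was 0.15 with 64 above 0, again with 0 calls over all genes. At an unadjusted p under 0.05, 3 members were then higher and 3 were lower. The share of all genes at that threshold was not counted with either covariate, so these counts cannot be judged against it. The muscle marker share did not overlap between the groups, and Xist was high only in libraries labelled KO. Both covariates thus run with the labels, and 6 libraries cannot separate them from the group. What muscle content and sex each contribute to the shift was not tested further.

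**Figure D2:**
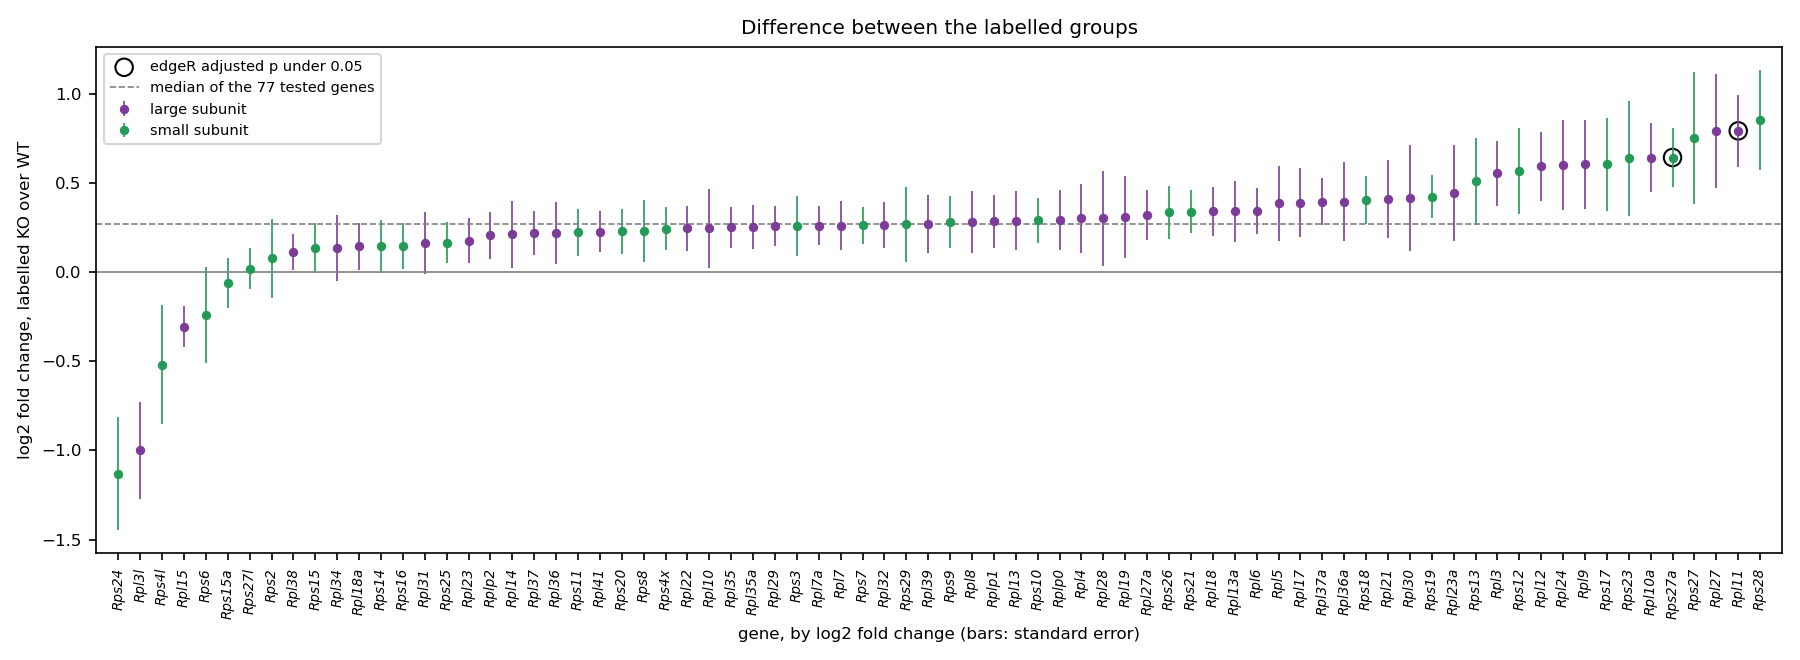
log2 fold change (labelled KO over labelled WT) of the tested ribosomal protein genes in rising order, with bars of 1 standard error; purple is large subunit, green is small subunit, rings mark an adjusted p under 0.05 and the dashed line is the median of 0.27 over all 77 tested. Most genes lie just above 0, Rps24 and Rpl3l stand apart on the low side at -1.13 and -0.999, and the rings are on Rps27a and Rpl11.

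The shift was of similar size in genes of the large and of the small subunit. The 46 tested large subunit genes had a median log2 fold change of 0.29, and the 31 small subunit genes a median of 0.26. In each subunit 1 gene rose and 0 fell, where 4.81% and 7.43% of all genes did. No overlap with the labelled KO above was found in 25 large and 15 small subunit genes, where 22% of all genes had it. With the labelled KO below it was found in 2 and 1, where 22.1% of all genes had it. Summed large subunit genes held 0.704 ± 0.0609% of counts in the labelled KO and 0.547 ± 0.0655% in the labelled WT libraries, and small subunit genes 0.472 ± 0.0437% and 0.371 ± 0.0464% (SD, n = 3 each). Their log2 ratio was 0.60, 0.59 and 0.55 in the labelled KO and 0.55, 0.55 and 0.57 in the labelled WT libraries. The groups overlapped and their means differed by 0.02. Without the 5 paralogs the ratio was 0.56, 0.55 and 0.49 against 0.48, 0.43 and 0.40, without overlap and with a difference of 0.10. Rpl3l, a large subunit gene that was lower in every labelled KO library, is the most counted of the paralogs.

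Rpl11 and Rpl5 bind the 5S ribosomal RNA together and, when free of the ribosome, can hold back Mdm2, the ubiquitin ligase of p53. Rpl11 was at 3.86, 4.15 and 4.09 CPM in the labelled KO and 2.61, 2.44 and 1.91 CPM in the labelled WT libraries. All labelled KO libraries were above all labelled WT libraries, and the rise was 0.79 ± 0.20 on the log2 scale (edgeR, adjusted p = 0.0461). Rpl5 was at 3.07, 3.12 and 3.51 CPM against 2.95, 2.25 and 2.23 CPM, also without overlap, with a log2 fold change of 0.38 (95% interval -0.10 to 0.87, adjusted p = 0.210 in edgeR).

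Rps27a is made as a fusion of ubiquitin with a small subunit protein, and ubiquitin is cut off afterwards. It was at 6.69, 7.33 and 6.70 CPM in the labelled KO and 4.84, 4.13 and 4.30 CPM in the labelled WT libraries. The groups were well apart and the rise was 0.64 ± 0.16 (edgeR, adjusted p = 0.0453). Both calls lay close to the threshold. Leaving out KO replicate 1, 2 or 3 or WT replicate 2 or 3 put the adjusted p of Rps27a between 0.0815 and 0.161. For Rpl11 it was between 0.0878 and 0.148. In those runs 0 to 1.81% of all genes tested rose and 0 to 2.69% fell, against 4.81% and 7.43% with all libraries. The loss of calls was thus not particular to these genes, and the same runs are used for the genes below. Without WT replicate 1, by contrast, 15 members were higher and 1 lower, beside 17.9% and 18.1% of all genes. With the muscle covariate the log2 fold change was 0.48 for Rps27a and 0.63 for Rpl11 (edgeR, adjusted p = 0.999 for both). With the sex covariate it was 0.60 and 0.73 (edgeR, adjusted p = 0.222 and 0.221). In either fit 0 of all genes passed, so these p-values do not show that the difference of these genes is due to muscle or sex. Neither gene has a 50-base stretch of its own: Rps27a shares coding sequence with 14 other genes and Rpl11 with 10.

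The highest fold change belonged to Rps28, a small protein of the small subunit near the exit of the messenger RNA. It was at 1.66, 1.19 and 1.19 CPM in the labelled KO and 0.774, 0.813 and 0.625 CPM in the labelled WT libraries, without overlap, at 0.85 ± 0.28 (edgeR, adjusted p = 0.0716). After Rps28 and Rpl11, Rpl27 and Rps27 had log2 fold changes of 0.79 and 0.75 (adjusted p = 0.112 and 0.171 in edgeR). These rest on few reads, with 266 counts over the 6 libraries for Rps28, 833 for Rpl27 and 289 for Rps27. Rps19, the gene most often mutated in Diamond-Blackfan anaemia, rests on 18209 counts. It was at 73.2, 90.4 and 88.0 CPM against 64.1, 61.2 and 62.5 CPM, without overlap, at 0.42 ± 0.12 (edgeR, adjusted p = 0.0534).

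The acidic stalk of the large subunit, which recruits the translation factors, is formed by Rplp0, Rplp1 and Rplp2. Rplp0 was at 793, 883 and 849 CPM in the labelled KO and 736, 685 and 641 CPM in the labelled WT libraries. Rplp1 was at 408, 480 and 458 CPM against 396, 359 and 352 CPM. Neither gene's groups overlapped. Rplp2 overlapped narrowly, with 169, 205 and 205 CPM against 172, 157 and 173 CPM. Their log2 fold changes of 0.29, 0.28 and 0.21 were close to the median of all members, and none passed the test. The 95% intervals reached down to -0.10 (Rplp2) and up to 0.68 (Rplp0).

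Rps6, the small subunit protein phosphorylated downstream of mTOR, was counted at only 3.46, 3.86 and 5.79 CPM in the labelled KO and 5.59, 6.05 and 3.83 CPM in the labelled WT libraries. The groups overlapped, with a log2 fold change of -0.24 (95% interval -0.86 to 0.38; edgeR, adjusted p = 0.522). Rps6 has no 50-base stretch of its own and shares coding sequence with 14 other genes. Whether its low level reflects reads lost to copies was not tested. The X-linked members, Rpl10, Rpl36a, Rpl39 and Rps4x, had log2 fold changes of 0.25, 0.39, 0.27 and 0.24, and none of the 4 passed the test. Rps4x was at 119, 135 and 129 CPM against 117, 109 and 98.2 CPM, without overlap, and the other 3 overlapped.

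Rps24, a small subunit protein, had the lowest fold change. It was at 44.0, 57.1 and 114 CPM in the labelled KO and 162, 152 and 158 CPM in the labelled WT libraries. The labelled WT libraries lay close together, and the labelled KO libraries were all lower but spread widely. The log2 fold change was -1.13 ± 0.32, just outside the threshold in edgeR (adjusted p = 0.0530) and inside it in DESeq2 (0.00449) and limma-voom (0.0426). Leaving out each library in turn gave -0.88 (without KO replicate 1) to -1.64 (without KO replicate 3). The adjusted p in edgeR was 0.0366 without KO replicate 3 and 0.0621 to 0.161 without any other library. With the muscle covariate the log2 fold change was -0.49 and with the sex covariate -1.84 (edgeR, adjusted p = 0.999 and 0.185). Rps24 has transcripts that differ in a few short exons near the end of the coding sequence, and counts per gene do not separate them.

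Rpl3l is the form of Rpl3 that adult skeletal and heart muscle use in its place. It was at 216, 247 and 310 CPM in the labelled KO and 347, 496 and 701 CPM in the labelled WT libraries, without overlap. The log2 fold change was -0.999 ± 0.27, with an adjusted p of 0.0506 in edgeR, 0.00272 in DESeq2 and 0.0469 in limma-voom. With the muscle covariate it was -0.025 (edgeR, adjusted p = 0.999). Leaving out WT replicate 1 gave an adjusted p of 0.00651, and leaving out any other library 0.0756 to 0.164. Its order over the libraries was the order of the muscle marker share, which was 4.73, 5.11 and 6.48% in the labelled KO and 8.20, 10.6 and 12.6% in the labelled WT libraries.

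Rpl3 itself went the other way, at 47.2, 55.6 and 50.7 CPM in the labelled KO and 44.5, 32.3 and 27.7 CPM in the labelled WT libraries. The groups did not overlap and the log2 fold change was 0.55 ± 0.18 (edgeR, adjusted p = 0.0723; DESeq2, 0.0353; limma-voom, 0.0620). In edgeR it was 0.16 with the muscle covariate (adjusted p = 0.999) and 0.78 without WT replicate 1 (adjusted p = 0.00666), and without any other library the adjusted p was 0.127 to 0.213. Of the counts of both genes, Rpl3l held 82.1, 81.6 and 85.9% in the labelled KO and 88.6, 93.9 and 96.2% in the labelled WT libraries. Reads of Rpl3 are the more exposed to copies, since only 4.31% of its 50-base stretches occur in no other gene, against 100% for Rpl3l.

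The other paralogs gave little. Rps27l, a p53-induced form of Rps27, stood at 33.4, 36.2 and 36.6 CPM against 32.3, 37.7 and 34.7 CPM, with a log2 fold change of 0.02 (95% interval -0.24 to 0.28; edgeR, adjusted p = 0.915). Rps4l, a copy of Rps4x, was at 1.70, 2.33 and 3.91 CPM against 2.95, 3.94 and 4.53 CPM, overlapping, with a log2 fold change of -0.52 (edgeR, adjusted p = 0.273). Rpl39l had 29 counts over all libraries. Rpl10l, known from the testis, had 0 counts among 243954980, which allows a level of up to 0.0123 CPM by counting error alone.

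**Figure D3:**
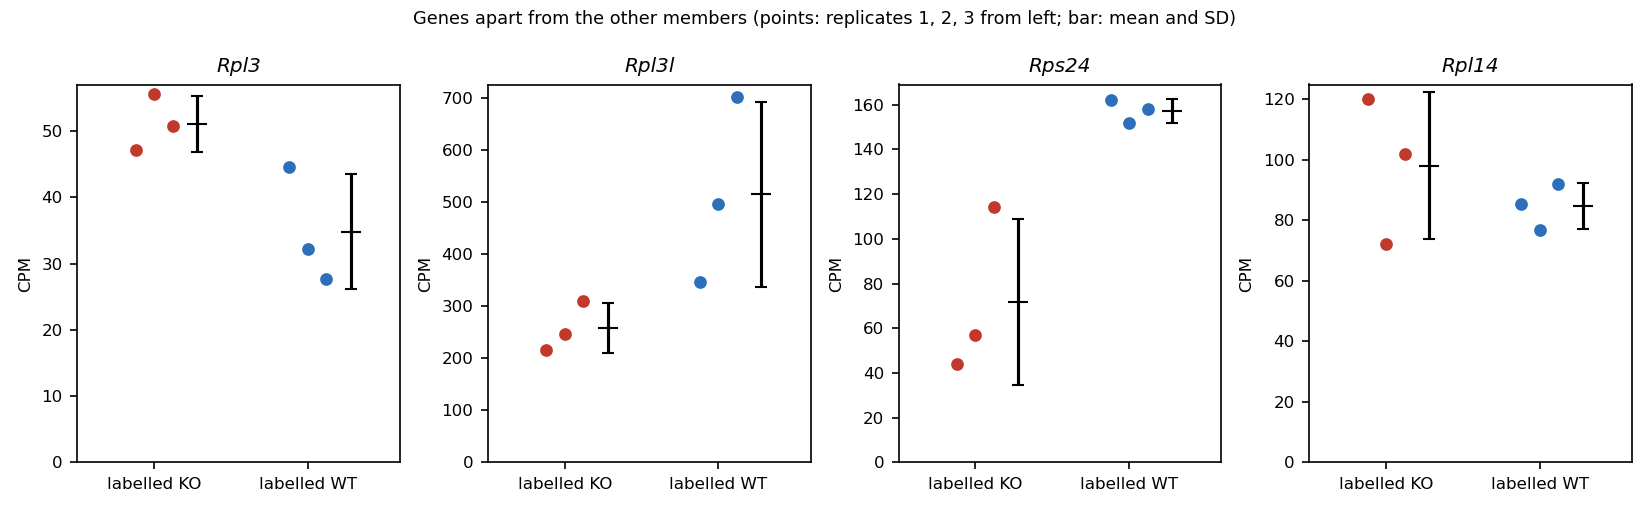
CPM of Rpl3, Rpl3l, Rps24 and Rpl14 in each library (points are replicates 1, 2 and 3 from left; bars are mean and SD, n = 3), each panel on its own axis from 0. The labelled KO libraries are below the labelled WT libraries for Rpl3l and Rps24, above them for Rpl3, and spread over the labelled WT range for Rpl14.

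Rpl15 was the third member with every labelled KO library below. It was at 23.1, 24.9 and 24.0 CPM against 31.3, 30.5 and 27.2 CPM, a log2 fold change of -0.31 ± 0.12 that did not pass the test (edgeR, adjusted p = 0.0973). Among the 51 members at 10 CPM or more, Rpl3l, Rpl15, Rps24 and Rpl14 were the 4 with a median correlation with the other members below 0. This median Pearson correlation over the 6 libraries was -0.69 for Rpl3l, -0.57 for Rpl15, -0.54 for Rps24 and -0.03 for Rpl14. Rps15a, Rps27l and Rps2 were also low, at 0.17, 0.17 and 0.24, and Rpl41 was highest, at 0.92. These values describe 6 libraries that share the group labels and the scaling.

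The levels themselves were very uneven. The 10 most counted members held 62.9% of all member counts, and the 29 members under 10 CPM held 0.905%. Per kilobase of coding sequence, Rpl41 (1901 CPM), Rplp1 (1195), Rpl4 (1072) and Rpl8 (1040) were among the highest. Rpl41 has a coding sequence of only 75 bases, over which the reads of its untranslated ends are also counted. Other members with long untranslated ends share this bias, such as Rps20, with 357 coding bases in a transcript of 3706. Among members outside the 5 paralogs with at least 100 counts, Rpl24 (3.12), Rpl5 (3.21), Rpl19 (3.69), Rpl28 (4.28) and Rps27 (4.53) were lowest. The highest and lowest of these 74 genes were 610-fold apart, and 410-fold without Rpl41. Neighbours in this order mostly overlap over the libraries, as the plot of CPM by library shows.

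**Figure D4:**
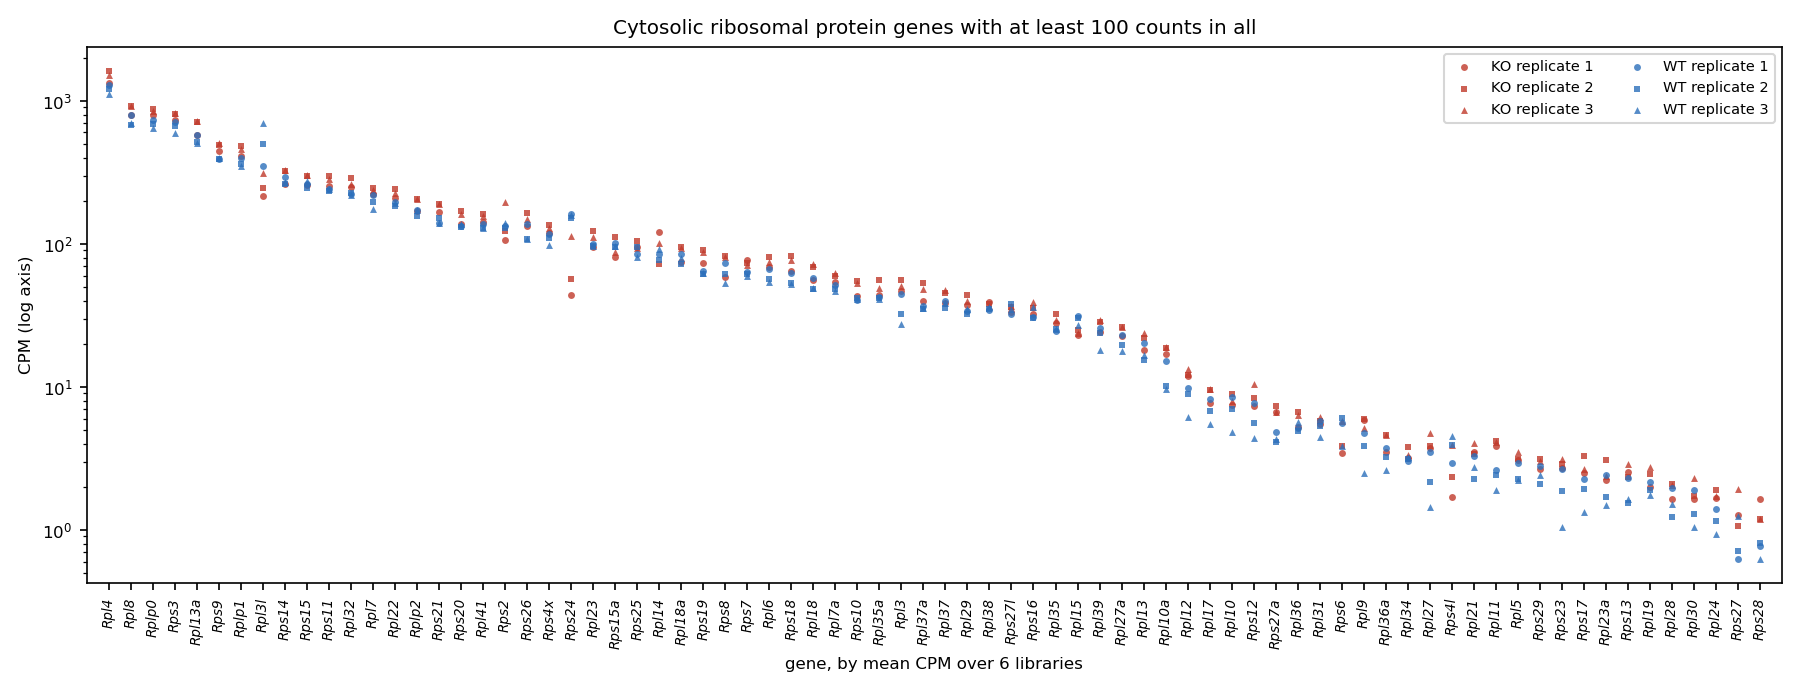
CPM on a log axis of the ribosomal protein genes with at least 100 counts in all, in each of the 6 libraries, ordered by mean CPM; red marks are labelled KO and blue marks labelled WT replicates, with a shape for each replicate. For most genes the 6 marks lie close together compared with the range over genes, and Rpl3l and Rps24 show the widest gaps with blue above red among the genes over 100 CPM.

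This spread went with how much of a gene's sequence is shared with its copies. Of all 50-base stretches of a coding sequence, the share found in no other gene had a median of 9.74% over the members. It was under 10% in 41 members and over 90% in 5. A median member shared a stretch with 9 other genes. Rpl7a shared one with 123, Rpl29 with 84, Rpl21 with 82, Rps2 with 71 and Rpl17 with 51, and Rpl3l and Rpl39l with 0. Of the 1102 such genes counted over the members, 1055 are annotated as pseudogenes.

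Across 75 members (without the paralogs), the unshared percentage and the level per length had a Spearman correlation of 0.78, and of 0.77 with stretches of 100 bases. Without Rpl41 it was 0.83, and among the 45 members with any unshared stretch it was 0.79. The 30 members with no unshared stretch had a median level of 9.85 CPM per kilobase, the 28 with up to 25% a median of 140, and the 17 with 25% or more a median of 655. Rpl5 and Rpl11, all of whose 90 printed bases are shared, were counted at 3.21 and 5.95 CPM per kilobase, and Rpl4, with 46 of 90 shared, at 1072. Read length and the treatment of reads that fit several places were not given in the sources used here, so the loss of reads to copies was not tested directly, and true differences in level between these messenger RNAs cannot be told apart from it.

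**Figure D5:**
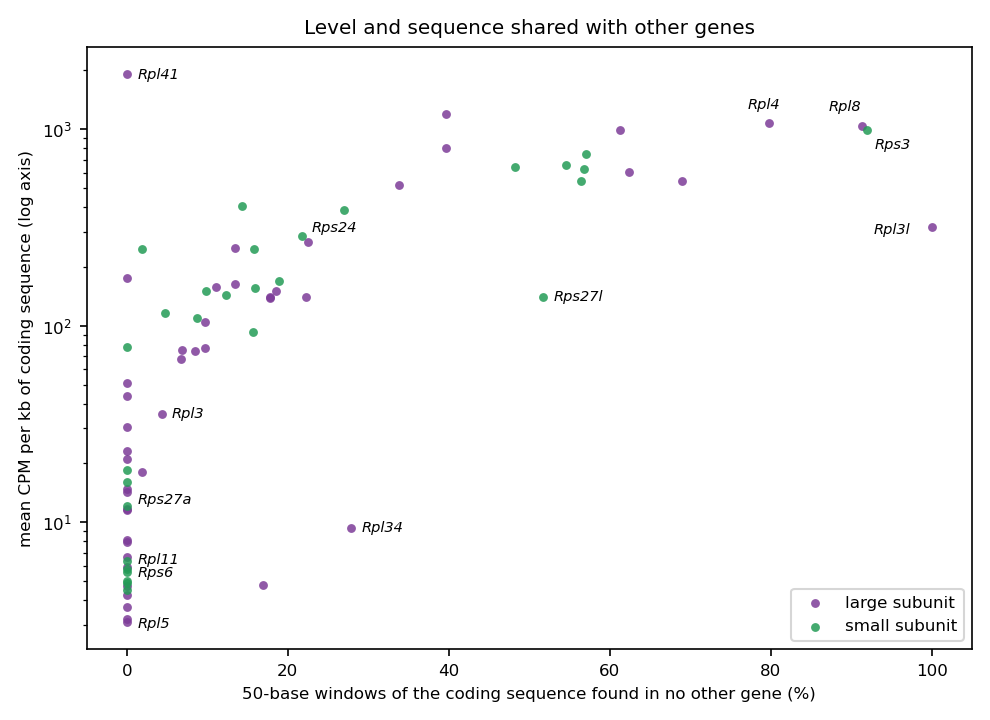
Mean CPM per kilobase of coding sequence (log axis) of members with at least 100 counts in all against the percentage of the coding sequence's 50-base stretches found in no other gene; purple is large subunit, green is small subunit. Genes with no unshared stretch lie between 3.12 and 77.7 except Rpl38 (174) and Rpl41 (1901), and of the genes drawn those with 25% or more lie at 522 or above except Rpl34, Rps27l, Rpl3l and Rps26.

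The difference between the groups was also measured within these classes. The 17 members with 25% or more unshared sequence hold 73.5% of all member counts. All 17 had a log2 fold change above 0, between 0.13 and 0.34 with a median of 0.26, and none passed the test in either direction. In 11 every labelled KO library lay above every labelled WT library, where 22% of all genes did. The 27 tested members with up to 25% had a median of 0.25. The 30 members with none hold 3.73% of the member counts, had a median of 0.40 with 28 above 0, and include both genes that passed the test. Level and log2 fold change had a Spearman correlation of -0.49 across the tested members outside the paralogs, so the larger fold changes sat with low counts. By counts alone, the median was 0.41 for the 26 members under 10 CPM, 0.26 for the 27 from 10 to 100 CPM and 0.24 for the 24 at 100 CPM or more.

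Few reads were assigned to the pseudogenes that the table lists. Of its rows outside the members, 22 are annotated or named as ribosomal protein pseudogenes. Rps4l, with 781 counts over the libraries, stays among the members by its symbol and is not in the share that follows. The 22 rows held 0.189, 0.375 and 0.265% of the counts of members and pseudogenes together in the labelled KO and 0.278, 0.284 and 0.200% in the labelled WT libraries. The groups overlapped. Rpl14-ps1 held most of these counts in every library, from 317 of 488 in WT replicate 3 to 1422 of 1660 in KO replicate 2. Without it the share was 0.0458, 0.0539 and 0.0546% in the labelled KO and 0.0665, 0.0583 and 0.0701% in the labelled WT libraries. The labelled KO libraries were then all lower, in a setting chosen after seeing the data.

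The split between Rpl14, a large subunit gene, and Rpl14-ps1 varied between libraries. Rpl14 was at 120, 72.2 and 102 CPM in the labelled KO and 85.5, 77.0 and 92.0 CPM in the labelled WT libraries. Rpl14-ps1 held 10.7, 34.3 and 19.4% of the counts of the pair in the labelled KO and 19.9, 21.8 and 11.9% in the labelled WT libraries, highest in the library where Rpl14 was lowest. Added together, the pair was at 135, 110 and 127 CPM against 107, 98.5 and 104 CPM. The sums did not overlap between the groups, while Rpl14 alone did.

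Some features of the messenger RNAs bear on HuR and on growth control. HuR sites are rich in A and T, and the pentamer ATTTA (searched on the transcript strand) is their simplest sign. In the 3′ untranslated region, 15 of the 79 members with a GENCODE coding transcript had at least 1 ATTTA, or 19.0%, against 56.8% of 19665 genes in the table. These regions are short in the members, with a median of 89 bases against 681, and per kilobase the members held 1.54 ATTTA against 1.86 over all genes. The median log2 fold change was 0.26 in the 15 members with an ATTTA and 0.28 in the 61 tested members without one. Rps24, Rpl15 and Rps28 are among those with one, and Rpl3l and Rpl11 are not.

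The pyrimidine tract was searched at the RefSeq starts (GRCm38.p6) of the 59 members with an entry, on the gene's strand, as a C within 5 bases of the start followed by at least 5 further C or T. It was found in 25 of the 59, or 42.4%, against 11.9% of 27025 genes. The bases from 15 before the start to 14 after it are shown for 5 members with the tract, in capitals, and for 2 of the members with the highest fold changes, which have none.
Rpl13a (chr7:45128731-45128760, minus strand): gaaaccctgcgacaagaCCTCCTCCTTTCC
Rpl27a (chr7:109519180-109519209, plus strand): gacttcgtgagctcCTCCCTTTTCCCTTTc
Rpl15 (chr14:18270972-18271001, minus strand): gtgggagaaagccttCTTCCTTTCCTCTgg
Rps6 (chr4:86857353-86857382, minus strand): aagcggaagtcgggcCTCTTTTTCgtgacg
Rps24 (chr14:24490663-24490692, plus strand): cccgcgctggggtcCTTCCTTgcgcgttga
Rpl11 (chr4:136053379-136053408, minus strand): ctgacccataaggccacggggccggaagtc
Rps28 (chr17:33824548-33824577, minus strand): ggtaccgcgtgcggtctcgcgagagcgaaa
A match is a description of letters and depends on where the start is annotated. The median log2 fold change was 0.26 in the 25 members with a tract and 0.29 in the 31 tested members without one. Of the members lower in every labelled KO library, Rps24 and Rpl15 have a tract and Rpl3l has none. Of those with high fold changes, Rps27 has one and Rpl11 and Rps28 have none.

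Other genes of the translation machinery were set beside the members. The 8 tested ribosomal proteins outside the symbol rule had a median log2 fold change of 0.30 with 0 calls. At an unadjusted p under 0.05, 2 were higher, where 18.2% of all genes were. Rps3a1 and Fau, at 0.38 and 0.41, were the highest. Of 40 genes of ribosome biogenesis, 6 rose and 0 fell, where 4.81% of all genes rose and 7.43% fell. All 40 were above 0 in value and the median was 0.42. The genes that rose were Eif6, which keeps the subunits apart during maturation (0.97), the RNA polymerase I subunit gene Polr1e (0.71), Nhp2 (0.70), Wdr43 (0.67), Nolc1 (0.63) and Bop1 (0.54). Of 26 genes of translation factors, mTOR signalling and other proteins linked to translation, 0 rose and 1 fell beside the same shares of all genes. Their median was 0.04. The one that fell was Eef1a2, the elongation factor form of muscle and neurons, at -1.15 ± 0.29 (edgeR, adjusted p = 0.0454). Genes of the mitochondrial ribosome, encoded in the nucleus, had mostly negative values. Of 76 tested, 72 had a log2 fold change below 0 and the median was -0.34, with 0 calls and with 28 lower against 0 higher by unadjusted p under 0.05, where 20.3% and 18.2% of all genes were.

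In the authors' deposited table of the 6 libraries, 8 members were higher and 2 lower in the labelled KO at an adjusted p under 0.05, beside 12.4% and 16.3% of all genes. The authors' deposited table of KO replicates 1 and 2 with WT replicates 1 and 3 had 0 higher and 2 lower, beside 3.61% and 5.97%. The authors' deposited table of the same KO libraries with WT replicates 2 and 3 had 6 higher and 3 lower, beside 16.3% and 19.4%. Rpl3l and Rps24 were lower in all 3 of the authors' deposited tables, which share libraries.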

How the data were processed

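The 6 libraries were made from total RNA with a TruSeq RNA kit, per the labels' protocols. The authors deposited raw counts per gene in 1 table of 6 libraries and 2 tables of 4. Per the file headers, each table also holds a mean normalised signal, log2 fold changes with standard errors, a test statistic (a score) and p-values, all of the authors' own comparison. HTSeq, DESeq2, hg19 and mm10 are named in the submitters' processing notes. Their roles, the aligner, annotation, strand setting and handling of reads that fit several places were not given in the sources used here, so overlapping or near-identical genes are uncertain.

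Counts were filtered with filterByExpr (at least 10 counts in the smaller group's number of libraries after scaling, 15 in all), scaled by TMM (factors 0.866 to 1.09) and tested with edgeR 4.0.16 in R 4.3.3, quasi-likelihood with robust dispersion and group as the only term, over all 15903 genes, with Benjamini-Hochberg adjustment and a threshold of 0.05. Standard errors are the absolute log2 fold change over the square root of F, and intervals are at 95%. Sums and ratios over the members carry no test. DESeq2 1.42.0 and limma 3.58.1 (voom), other scalings, no filter, a replicate block, covariates and leaving out each library were alternatives. The fit was tested on simulated data. Shared sequence was sought as exact windows of 50 and 100 bases of the GENCODE M21 coding sequence in transcripts of genes elsewhere in GRCm38, which leaves out unannotated copies. Of the members, 79 matched GENCODE and 59 RefSeq starts. Genes named are those called, the 5 highest and lowest fold changes, paralogs with their partners, stalk, X-linked and other fixed members, and the extremes of level and of copies, with Rpl14 and Rpl14-ps1 added after their values were seen. The members and lists were chosen with earlier results of these data known. A member and a gene outside the symbol rule are not reported by name here; the member stays in all counts and sums but not in the plots of single genes.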

Additional observations from a re-analysis of the deposited data

How the results depend on the processing

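The summed share of counts kept its direction under every alternative run for it, with a difference (labelled KO minus labelled WT, percentage points of counts) between 0.211 and 0.320 when each library was left out. The counts of members past the test moved. For genes higher in the labelled KO, edgeR gave 2 beside 4.81% of all genes, and DESeq2 gave 7 beside 12.1%. The muscle and sex covariates gave 0 each, with 0 of all genes called. Leaving out 1 library gave 0 to 15, beside 0 to 17.9% of all genes, and 15 came without WT replicate 1. For genes lower, edgeR gave 0 beside 7.43% of all genes. DESeq2 gave 2 beside 15.9%, limma-voom 2 beside 7.99% and no filter on low counts 1 beside 6.57%. Leaving out 1 library gave 0 to 1 lower, beside 0 to 18.1% of all genes. The cause of these moves was not tested. With the muscle covariate Rpl3l was -0.025, while Rps4l turned to 0.53 and Rps6 to 0.011. The difference in the log2 ratio of large to small subunit moved from 0.02 to 0.10 without the paralogs and to 0.075 as a mean of log2 CPM over the members. The difference in pseudogene share, 0.0226 percentage points, ranged from -0.0266 to 0.0662 when each library was left out, negative without KO replicate 2 (-0.0266) or without WT replicate 3 (-0.00452), and was -0.0135 with Rpl14-ps1 left out, a setting chosen after seeing the data.

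The labels do not say whether libraries with the same replicate number belong together. The correlations of deviations of same-numbered libraries were 0.12, -0.16 and 0.19. With 3 libraries in each group these values cannot settle whether they were paired. With the replicate number as a block, 3 members were higher and 2 lower, beside 10.7% and 13.3% of all 15903 genes. Without the block 4.81% and 7.43% of all genes were. Rps27a and Rpl11 then had adjusted p-values of 0.0538 and 0.0506, and Rpl3l (-0.96, adjusted p = 0.00784) and Rps24 (-1.26, adjusted p = 0.0245) passed. At these depths a tested member under 10 CPM rests on 266 to 1971 counts over all libraries. Precision did not follow level alone. The standard error was 0.37 for Rps27 (mean 1.14 CPM) and 0.16 for Rps27a (mean 5.66 CPM), but 0.32 for Rps24 (mean 115 CPM).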
